A study of Homo sapiens with 12 samples.

Results

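Lipocalin 2 (LCN2) and 9 genes that carry iron into, through and out of cells were followed in hepatoma and stellate cells grown alone or together. The genes were listed by name for their part in iron handling: LCN2, TFRC, STEAP3, SLC11A2, FTH1, FTL, SLC40A1, HAMP, HMOX1 and IREB2. Earlier results of these data were known when they were chosen. Of these 10 genes, all 10 had a row among the 60612 of the HCCLM3 table and 9 had one among the 32507 of the LX2 table, where HAMP was not listed and was read as 0 counts. HCCLM3 is a human hepatoma line and LX2 a human hepatic stellate line, both labelled wild type and both held in a 3D tumour-on-a-chip. The 4 groups were HCCLM3 alone, HCCLM3 with LX2, LX2 alone and LX2 with HCCLM3, with 3 RNA sequencing libraries in each. No drug, dose or time is given in the labels, nor do they say that replicates were separate cultures, so each p-value measures a spread that may be technical.

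The libraries held 61836616 to 77712308 counts. Each line is 1 established line, so the 3 libraries of a group do not stand for different donors. In HCCLM3 alone, 5 of 20 hepatocyte markers reached 1 FPKM (fragment counts scaled to gene length and library size), and GPC3 was at 0 counts. The keratin KRT19 stood at 207 ± 20.8 FPKM there (SD, n = 3). In LX2 alone, 5 of 16 stellate and fibroblast markers reached 1 FPKM, with vimentin (VIM) at 176 ± 18.7 FPKM, while COL1A2, COL6A3, SPARC and LRAT were at 0 counts. The urea cycle enzyme CPS1, listed as a hepatocyte marker, stood at 67.6 ± 0.627 FPKM in LX2 alone. The labels do not say how the co-cultured lines were separated. In co-culture, carried-over RNA of the partner line and RNA made by the line itself cannot be told apart.

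Iron enters most cells on transferrin, which binds the transferrin receptor and is taken up into endosomes, where the metal is reduced by STEAP3 and released to the cytosol by the transporter SLC11A2. Iron that is not used is stored in ferritin, a shell of heavy chains (FTH1), which oxidise iron, and light chains (FTL), or leaves through ferroportin (SLC40A1), which the liver hormone hepcidin (HAMP) removes from the cell surface. Haem oxygenase 1 (HMOX1) frees iron from haem. Lipocalin 2 is a secreted protein that binds iron-laden bacterial siderophores, is stored in granules of neutrophils and is made by the liver in the acute-phase response. Iron regulatory proteins, among them IREB2, bind a stem-loop in the untranslated regions of several of these transcripts when iron is scarce. Binding near the start of ferritin transcripts blocks their translation, and binding near the end of TFRC transcripts protects them from decay.

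The stem-loops are shown because their place, before or after the coding sequence, tells control of translation from control of transcript decay, and counts measure transcripts only. GENCODE 29 transcripts (GRCh38) were searched for C, any 5 bases and CAGTG followed by A, C or T. Those 5 bases had to pair with the 5 bases after the loop, G-T pairs included. Elements with a bulge or a mismatch in these 5 pairs were not searched for. In this form the element was found in 4 of the 10 genes. It was present in the 5′ UTR of 26 of 19669 genes (0.132%) and in the 3′ UTR of 104 (0.529%). Capitals mark the 6-base loop. Only the transcript strand was searched, and a match is a description of the letters, not of binding.
FTH1, 5′ UTR, chr11:61967574-61967602, minus strand: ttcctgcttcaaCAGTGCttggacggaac
FTL, 5′ UTR, chr19:48965335-48965363, plus strand: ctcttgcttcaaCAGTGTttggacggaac
SLC40A1, 5′ UTR, chr2:189580661-189580689, minus strand: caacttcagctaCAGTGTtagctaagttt
TFRC, 3′ UTR, chr3:196050463-196050491, minus strand: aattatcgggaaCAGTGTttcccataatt
TFRC, 3′ UTR, chr3:196050510-196050538, minus strand: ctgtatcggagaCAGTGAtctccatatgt
TFRC, 3′ UTR, chr3:196050575-196050603, minus strand: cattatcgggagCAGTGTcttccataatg
TFRC, 3′ UTR, chr3:196050979-196051007, minus strand: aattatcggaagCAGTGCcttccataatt
By this search each ferritin chain held 1 match upstream of its coding sequence, ferroportin likewise, and TFRC held 4 downstream of its own. Whether these or the other genes hold elements of another form was not tested.

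Levels of the 10 genes spanned from FTL, the most abundant in HCCLM3, to HAMP, the least. In HCCLM3 alone the order by mean FPKM was FTL, FTH1, TFRC, HMOX1, SLC40A1, STEAP3, SLC11A2, IREB2, LCN2 and HAMP, and the neighbours TFRC and HMOX1, STEAP3 and SLC11A2, and IREB2 and LCN2 overlapped between libraries. With LX2 present, LCN2 stood between TFRC, with which it overlapped, and SLC40A1, with which it did not. In LX2 alone FTH1 was above FTL, followed by TFRC, IREB2, STEAP3, HMOX1, SLC11A2, SLC40A1 and LCN2, and STEAP3 overlapped with HMOX1 and HMOX1 with SLC11A2. In LX2 with HCCLM3 the order was FTH1, FTL, TFRC, HMOX1, IREB2, SLC11A2, STEAP3, LCN2 and SLC40A1, with no overlap between neighbours. Against LX2 alone, HMOX1 had thus moved above IREB2, SLC11A2 above STEAP3, and LCN2 above SLC40A1. Levels of the lines come from separate tables, and any comparison across them is a description.

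**Figure D1:**
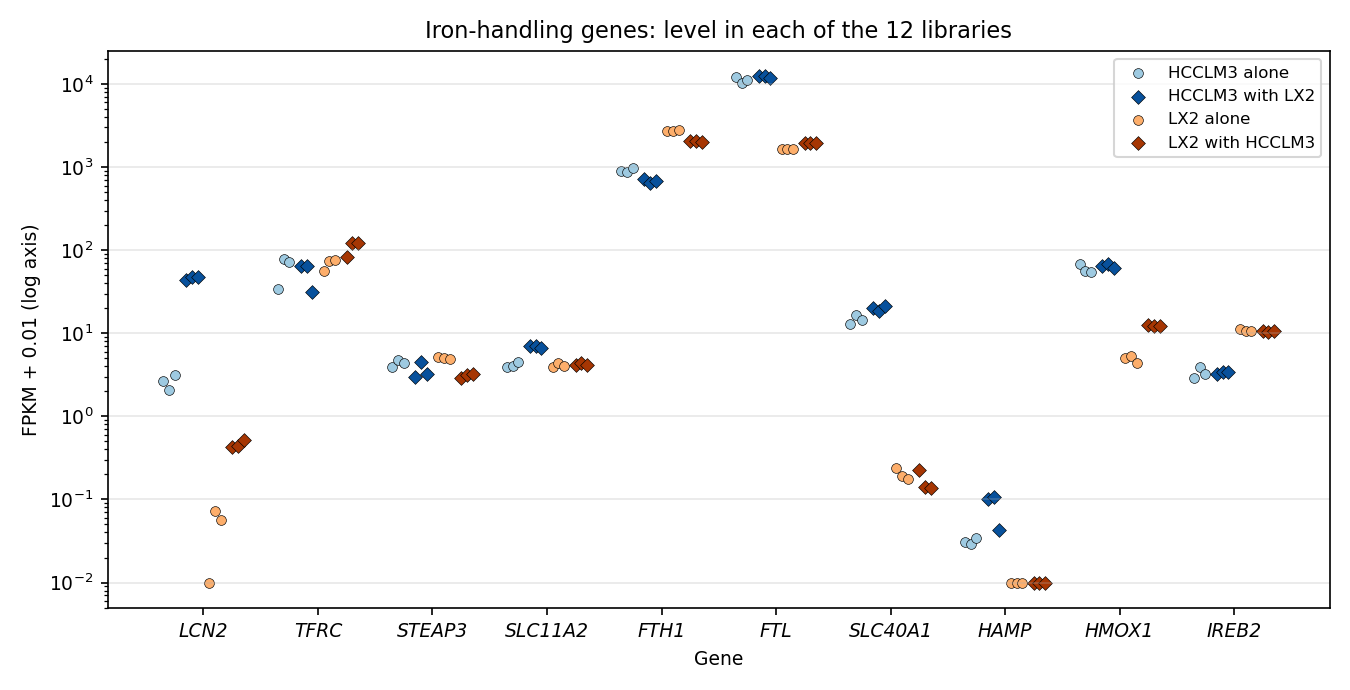
Level of each gene in each library, as FPKM + 0.01 on a log axis, with 3 points for each of the 4 groups; points at the bottom are libraries with 0 counts. LCN2 in HCCLM3 stands at 2.07 to 3.17 FPKM alone and at 44.1 to 47.3 FPKM with LX2, while most other genes keep to a narrow range within a line.

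LCN2 (ENSG00000148346, chromosome 9, 128149071 to 128153453, plus strand) rose in both lines, and in HCCLM3 its change was the largest of the 9 iron genes tested. In HCCLM3 alone its libraries held 399, 300 and 411 counts, or 2.68, 2.07 and 3.17 FPKM. With LX2 they held 5535, 6156 and 6009 counts, or 44.1, 47.3 and 47.3 FPKM. Each co-cultured library stood far above each library grown alone, and the replicates within a group lay close together. The log2 fold change was 3.96 (SE 0.169, a 15.5-fold rise, adjusted p = 1.57e-04, edgeR quasi-likelihood test with Benjamini-Hochberg adjustment over 18045 genes). It was higher in 3 of 3 co-cultured libraries, and over 15 alternative analyses the log2 fold change ran from 3.71 to 4.13.

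In LX2, LCN2 was close to the detection floor when the line was alone, with 0, 8 and 6 counts. It stood at 53, 58 and 68 counts with HCCLM3, or 0.416, 0.432 and 0.503 FPKM. The summed counts rose from 14 to 179, which gives a ratio of 12.1 per counts sequenced (exact 95% interval 7.04 to 22.6, for counting error only). LCN2 passed the filter on low counts in LX2 only through the co-cultured group. The log2 fold change was 3.52 (SE 0.79, adjusted p = 0.0169, edgeR), and the call was kept in 11 of 14 alternatives. It was lost without LX2 alone replicate 3 (adjusted p = 0.0505, edgeR), without LX2 with HCCLM3 replicate 3 (adjusted p = 0.0557, edgeR) and with the replicate number as a block (adjusted p = 0.0526, edgeR).

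The mean LCN2 level of co-cultured LX2, 0.45 FPKM, stands beside 46.2 FPKM in co-cultured HCCLM3. Its rise in LX2 came to 0.896% of that HCCLM3 level. This was set beside 49 genes with at least 20 FPKM in HCCLM3, both alone and with LX2, and under 0.1 FPKM in LX2 alone. LCN2, at 2.64 FPKM in HCCLM3 alone, is not one of them. Over the 49 genes, the rise in co-cultured LX2 had a median of 0.544% of the co-cultured HCCLM3 level (quartiles 0.293% and 0.825%). The rise of LCN2 in LX2 thus lies just above the upper quartile for transcripts typical of the partner, and the part of partner RNA in it was not tested. The difference between lines in the log2 change of LCN2, HCCLM3 minus LX2, was 0.4 (SE 0.665, adjusted p = 0.769, edgeR, 12 libraries). On the log2(FPKM + 1) scale, which shrinks the change of a gene as low as LCN2 in LX2, the difference was 3.22 (adjusted p = 1.36e-07, limma).

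**Figure D2:**
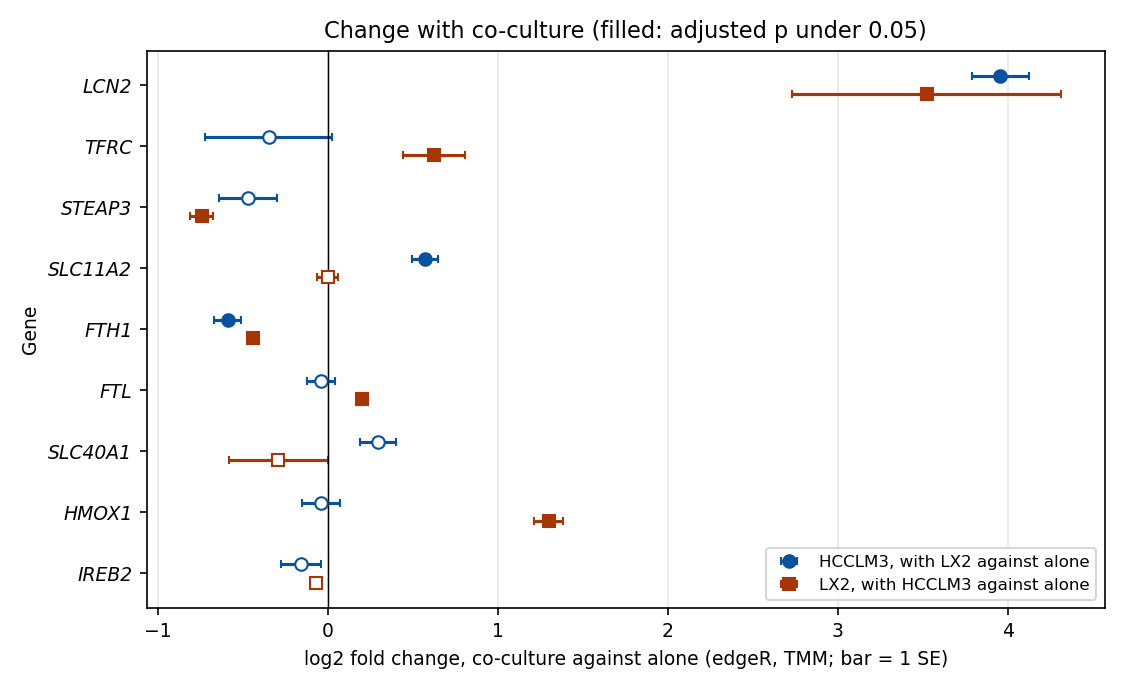
Log2 fold change with co-culture (edgeR, TMM scaling) for the 9 tested genes in HCCLM3 (circles) and LX2 (squares), with bars of 1 SE; filled symbols mark an adjusted p under 0.05. LCN2 stands far to the right in both lines, FTH1 lies below 0 in both, and HMOX1 lies near 0 in HCCLM3 and at 1.3 in LX2.

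The window of 250 bases before to 50 after the LCN2 start in RefSeq (GRCh38.p14) was read for sites of NF-kB, a factor of the inflammatory response that is known to drive this gene. Of the 10 genes, 8 had such a window, all but FTH1 and HMOX1. The pattern of GGGA, any 4 bases and CC was searched on both strands and matched the LCN2 window 2 times, 176 and 175 bases before the start, as overlapping matches on opposite strands. The stretch is shown for LCN2 with the first match in capitals, beside the only match of ACGTG, the core bound by hypoxia-inducible factors, in the TFRC window, 88 bases before its start.
LCN2, chr9:128149269-128149294, plus strand: agcactccGGGAATGTCCctcactct
TFRC, chr3:196082166-196082186, minus strand: gcgagcgtACGTGcctcagga
The NF-kB pattern was present in 25.6% of 35116 RefSeq windows, ACGTG in 21.4% and TGACNNNGC, the core of the antioxidant response element, in 13.3%, all on both strands. SLC40A1 and IREB2 each held 1 match to the NF-kB pattern and FTL held 1 to ACGTG. No window of the 8 genes held TGACNNNGC, and FTH1 and HMOX1 had no window to search.

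Other genes of the acute-phase and NF-kB response moved in the same libraries. Of 16 tested members of that list in HCCLM3, 10 rose and 0 fell, beside 10.1% and 11.6% of all tested genes, with a median log2 fold change of 1.09 beside 0.033 over all genes. One of those that rose, SAA1, passed the filter on low counts only through the co-cultured group (0 counts alone, 23, 19 and 11 with LX2). Among those that rose were the acute-phase factor CEBPD by 1.46 (SE 0.134, adjusted p = 0.00122, edgeR) and the cytokine feedback gene SOCS3 by 1.08 (SE 0.0706, adjusted p = 5.47e-04, edgeR). In LX2, 5 of 13 rose and 4 fell, beside 15.4% and 16.6% over all genes, with a median of 0.093. SOCS3 rose there too, by 0.91 (SE 0.0555, adjusted p = 7.71e-05, edgeR), while CEBPD fell by 0.51 (SE 0.0584, adjusted p = 0.00105, edgeR). Scaled to library totals, C3, CXCL8 and NFKBIA fell further in LX2, at -3.57, -2.43 and -2.42 (adjusted p = 3.79e-06, 3.13e-04 and 1.32e-05, edgeR). With the same scaling, NFKBIZ and TNFAIP3 rose there, at 1.51 and 1.27 (adjusted p = 0.00223 and 1.41e-05, edgeR). These examples were chosen after their values were seen.

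Over the 12 libraries, 8 of 21958 other genes had a Pearson r of at least 0.99 with LCN2 on log2(CPM + 1), where CPM is the count scaled to the library's size after TMM. The 5 most alike were DEPP1 (r = 0.995), the secreted airway protein BPIFB1 (0.993), the adhesion receptor ICAM1 (0.993), the p53-induced TP53INP1 (0.993) and the matrix protein THBS3 (0.993). The 12 libraries fall into 4 groups, so r mostly follows 4 group means, and it is given as a description. BPIFB1 had 174, 131 and 138 counts in HCCLM3 alone, 2028, 1857 and 1707 with LX2, and at most 4 in any LX2 library. ICAM1 stood at 6273 to 6895 counts in HCCLM3 alone and at 11085 to 12351 with LX2. Among the iron genes, SLC11A2 ranked 12 in likeness to LCN2 (r = 0.989), and FTH1 ran opposite to it (r = -0.96).

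Transcripts of blood cells appeared in the same HCCLM3 libraries in which LCN2 was high. Summed over 19 granulocyte and precursor markers, HCCLM3 libraries held 61 to 101 counts alone and 1601 to 1988 with LX2, and 17 of the 19 markers were at 0 when the line was alone. The granule enzyme MPO went from 0 in each library to 260, 302 and 261 counts, LYZ from 61 to 97 counts to 594 to 768, S100A9 from 0 to 132 to 348, and DEFA3 from 0 to 74 to 131. LTF, which like LCN2 is a gene of neutrophil specific granules, went from 0, 0 and 4 counts to 85, 82 and 62. Of 12 tested granulocyte markers, all 12 rose (edgeR, adjusted p under 0.05), beside 10.1% of all tested genes. Most of these markers passed the filter only through the co-cultured group.

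The erythroid sum of 18 markers went from 0 to 6 counts per library to 6649 to 9222. It was led by HBB (2211 to 4038), HBA1 (1810 to 2014), HBA2 (1685 to 1950) and HBG2 (282 to 673). Macrophage markers summed to 4263 to 4375 counts alone and 4247 to 5085 with LX2, mostly CD68, and C1QA, C1QB, C1QC, MARCO and VSIG4 were at 0 in both groups. Among the others, CD14 went from 55 to 91 counts alone to 133 to 164 with LX2, LAPTM5 from 0 to 50 to 104, and FCER1G stood at 0 to 14 and 3 to 13. Lymphocyte and plasma cell markers summed to 249 to 531 and 291 to 797 counts, and CD79A, at 208 to 477 and 193 to 228, held much of both. The immunoglobulin gene IGKC held 0 counts in the libraries grown alone and 24, 510 and 382 with LX2. NKG7 stood at 0 to 12 counts alone and 25 to 33 with LX2, and PTPRC at 0 to 34 and 16 to 67.

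In LX2 the granulocyte sum was 102 to 165 counts alone and 56 to 111 with HCCLM3. There MPO, CTSG, DEFA3, CAMP and BPI were at 0 in each library, while PRTN3 held 88, 127 and 70 counts alone and 46, 65 and 41 with HCCLM3. ELANE held 4, 0 and 1 counts and then 0, 17 and 4, LTF 8, 0 and 0 and then 0, 6 and 13. The LX2 erythroid sum was 6 to 20 alone and 48 to 214 with HCCLM3. In HCCLM3 alone LCN2 was present at 300 to 411 counts while MPO stood at 0. The part of blood cell transcripts in the rise of LCN2 was not tested in either line. In bulk libraries, more cells of a type and more RNA per cell cannot be told apart.

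**Figure D3:**
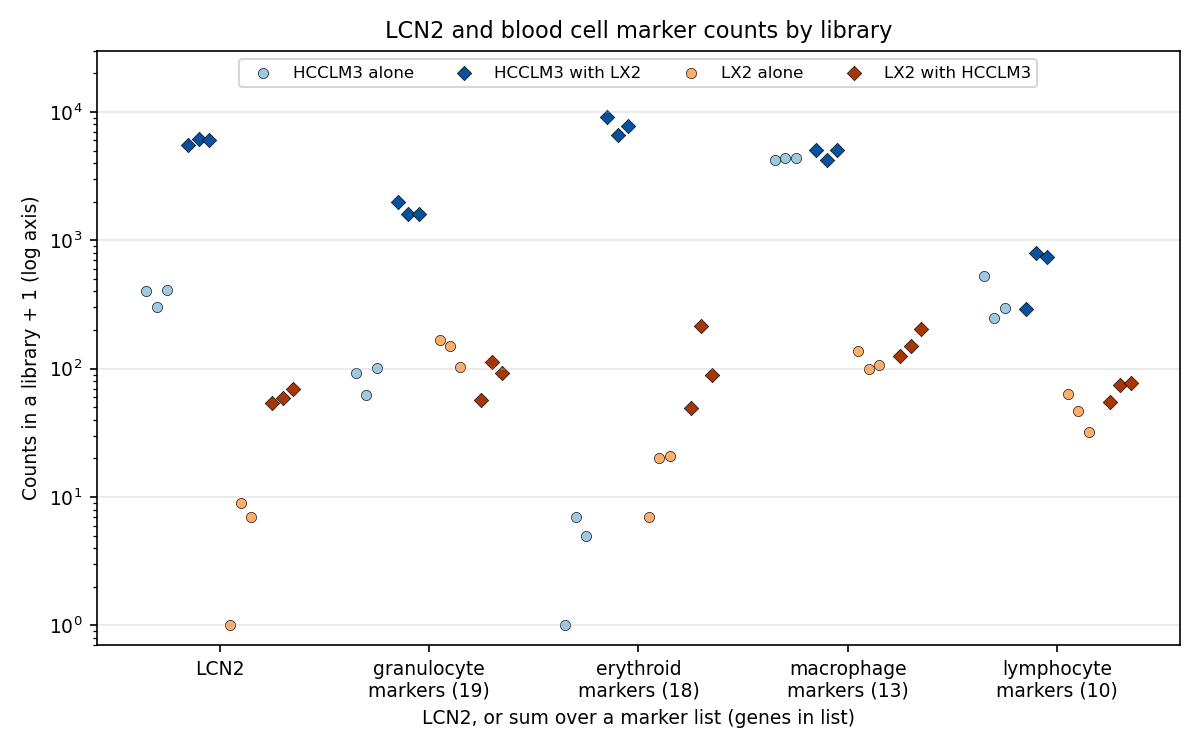
Counts + 1 per library on a log axis for LCN2 and for the sums of 4 lists of blood cell markers, with 3 points for each of the 4 groups. In HCCLM3 with LX2, LCN2, granulocyte and erythroid markers all stand above HCCLM3 alone; in LX2, LCN2 is higher with HCCLM3 while the granulocyte sum is not.

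The HCCLM3 comparison called 21.7% of 18045 tested genes, 10.1% higher and 11.6% lower, and the LX2 comparison called 31.9% of 19671, 15.4% higher and 16.6% lower. Of the 9 iron genes tested in HCCLM3, 3 were called: LCN2 and SLC11A2 rose and FTH1 fell. In LX2, 6 of 9 were called: LCN2, TFRC, FTL and HMOX1 rose, and FTH1 and STEAP3 fell. The HCCLM3 count is close to the share over all genes, and the LX2 count includes LCN2, which passed the filter only through its co-cultured group. The median log2 fold change of the 9 genes was -0.041 in HCCLM3 beside 0.033 over all genes, and 0.00 in LX2 beside 0.015.

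Scaling bears on small changes in HCCLM3. With library totals in place of TMM factors, the median over all genes moved to 0.21, and the called genes split into 2977 higher and 1039 lower instead of 1829 and 2095. Changes in HCCLM3 under about that size are therefore given relative to the shift. In LX2 the median moved to 0.044 (3322 higher and 2911 lower instead of 3020 and 3261).

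TFRC (ENSG00000072274, chromosome 3, 196027183 to 196082096, minus strand), the transferrin receptor, varied between HCCLM3 replicates by more than its groups differed. Its HCCLM3 levels were 33.7, 78.4 and 71.3 FPKM alone and 64.0, 65.4 and 31.6 FPKM with LX2. The groups overlapped fully, with 1 low library in each, and the log2 fold change was -0.35 (SE 0.372, adjusted p = 0.554, edgeR). In LX2 the levels were 56.6, 75.1 and 75.8 FPKM alone and 82.2, 123.2 and 120.8 FPKM with HCCLM3. These groups did not overlap, and TFRC rose by 0.62 (SE 0.184, a 1.54-fold rise, adjusted p = 0.0435, edgeR). The call held in only 6 of 15 alternatives, over which the log2 fold change ran from 0.5 to 0.79 and the adjusted p from 0.00198 to 0.228. Leaving out any LX2 library except LX2 with HCCLM3 replicate 1 ended it, with adjusted p-values of 0.0766 to 0.126 (edgeR). HCCLM3 minus LX2, the difference in change was -1.0 (SE 0.466, adjusted p = 0.165, edgeR).

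STEAP3 (ENSG00000115107, chromosome 2, 119223831 to 119265652, plus strand), the endosomal ferrireductase, fell in LX2. Its LX2 levels were 5.11, 5.07 and 4.84 FPKM alone and 2.88, 3.10 and 3.18 FPKM with HCCLM3, with a clear gap between the groups. The log2 fold change was -0.74 (SE 0.0666, adjusted p = 3.88e-04, edgeR). In HCCLM3 it stood at 3.91, 4.75 and 4.4 FPKM alone and at 2.93, 4.49 and 3.18 FPKM with LX2, where replicate 2 overlapped with the libraries grown alone. The HCCLM3 change was -0.47 (SE 0.169, adjusted p = 0.0936, edgeR), past the threshold without HCCLM3 with LX2 replicate 2 (-0.67, adjusted p = 0.0249, edgeR) and in 1 fit over all 12 libraries (-0.47, adjusted p = 0.0285, edgeR). Between the lines the change differed by 0.24 (SE 0.193, adjusted p = 0.445, edgeR).

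SLC11A2 (ENSG00000110911, chromosome 12, 50979401 to 51028566, minus strand), the divalent metal transporter that moves iron out of endosomes, rose in HCCLM3 and not in LX2. HCCLM3 libraries stood at 3.93, 4.08 and 4.45 FPKM alone and at 7.05, 7.02 and 6.71 FPKM with LX2. Both groups were tight and separate, and the log2 fold change was 0.57 (SE 0.0756, a 1.49-fold rise, adjusted p = 0.0038, edgeR). LX2 libraries stood at 3.87, 4.44 and 4.05 FPKM alone and at 4.15, 4.35 and 4.11 FPKM with HCCLM3, which overlap (log2 fold change 0.00, SE 0.0631, adjusted p = 0.998, edgeR). The lines differed in this change by 0.54 (SE 0.0934, adjusted p = 0.00205, edgeR), and the difference was called in each of 20 alternatives, from 0.49 to 0.72.

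A further list covered iron uptake and reduction. Of its 9 genes tested in HCCLM3, 1 rose and 0 fell, beside 10.1% and 11.6% over all genes. Of 10 tested in LX2, 3 rose and 2 fell, beside 15.4% and 16.6%. The HCCLM3 rise was in TF, which encodes transferrin, at 0.076 ± 0.0186 FPKM alone and 0.366 ± 0.0388 FPKM with LX2 (SD, n = 3), both low levels for a plasma protein gene. In LX2 the zinc and iron importer SLC39A8 fell from 13.96 ± 0.108 to 9.16 ± 0.395 FPKM (log2 fold change -0.64, adjusted p = 9.68e-05, edgeR). The surface ferrireductase CYBRD1 fell from 21.1 ± 0.729 to 15.1 ± 0.37 FPKM (-0.50, adjusted p = 2.57e-04, edgeR), and its relative STEAP1 rose from 0.684 ± 0.0776 to 1.48 ± 0.444 FPKM (1.07, adjusted p = 0.0184, edgeR). STEAP1 stood at 80.3 ± 6.67 FPKM in HCCLM3 alone and at 86.4 ± 4.91 FPKM with LX2. The part of partner RNA in its LX2 rise was not tested.

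Of 5 genes listed as partners of lipocalin 2, 3 were tested in HCCLM3 and 1 in LX2. The cell surface receptors SLC22A17 and LRP2 had 0 counts in each HCCLM3 library and at most 4 in any LX2 library. MMP9, whose protein binds lipocalin 2, went from 0 to 10, 12 and 19 counts in HCCLM3, and LTF changed as given above; both passed the filter on low counts only through the co-cultured group. BDH2, an enzyme proposed to make a mammalian siderophore, fell in LX2 from 4.22 ± 0.461 to 3.34 ± 0.167 FPKM (-0.37, adjusted p = 0.0259, edgeR). In HCCLM3 it stood at 1.53 ± 0.0507 FPKM alone and 2.25 ± 0.211 FPKM with LX2. That rise was not called under TMM scaling but was on library totals (0.57, adjusted p = 0.0179, edgeR).

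FTH1 (ENSG00000167996, chromosome 11, 61959718 to 61967634, minus strand), the ferritin heavy chain, fell in both lines. In HCCLM3 it stood at 904, 871 and 973 FPKM alone and at 722, 639 and 688 FPKM with LX2. The groups did not overlap, and the log2 fold change was -0.59 (SE 0.0793, adjusted p = 0.00407, edgeR), from -0.64 to -0.42 over 15 alternatives. In LX2 it stood at 2757, 2700 and 2763 FPKM alone and at 2072, 2086 and 2033 FPKM with HCCLM3. Replicates differed by far less than the groups did, and the log2 fold change was -0.44 (SE 0.0155, adjusted p = 8.59e-06, edgeR), from -0.45 to -0.40 over 15 alternatives. The difference in this fall, HCCLM3 minus LX2, was -0.18 (SE 0.0829, adjusted p = 0.156, edgeR).

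FTL (ENSG00000087086, chromosome 19, 48965309 to 48966879, plus strand), the ferritin light chain, did not follow the heavy chain. In HCCLM3 it stood at 12064, 10280 and 11238 FPKM alone and at 12323, 12467 and 11888 FPKM with LX2, with overlap between the groups. The log2 fold change was -0.04 (SE 0.0804, adjusted p = 0.765, edgeR), and 0.14 on library totals (adjusted p = 0.212, edgeR), so its sign follows the scaling. In LX2 it stood at 1657, 1672 and 1651 FPKM alone and at 1947, 1939 and 1952 FPKM with HCCLM3. Here the groups were far apart for their spread, and FTL rose by 0.2 (SE 0.0134, a 1.15-fold rise, adjusted p = 1.11e-04, edgeR), from 0.19 to 0.23 over 15 alternatives. The part of partner RNA in this rise, from a line with far higher FTL, was not tested. For FTL the difference between lines was -0.27 (SE 0.0835, adjusted p = 0.041, edgeR), a call that held in 6 of 20 alternatives. On library totals the difference was -0.095 (adjusted p = 0.418, edgeR), and 10 of the leave-one-out fits ended the call.

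The ratio of FTH1 to FTL FPKM within a library is free of scaling between libraries. It was 0.0749, 0.0847 and 0.0866 in HCCLM3 alone and 0.0586, 0.0513 and 0.0578 with LX2, a fall of the mean from 0.0821 ± 0.0063 to 0.0559 ± 0.00404 (SD, n = 3). In LX2 it was 1.66, 1.62 and 1.67 alone and 1.06, 1.08 and 1.04 with HCCLM3, a fall of the mean from 1.65 ± 0.0315 to 1.06 ± 0.0173. Each co-cultured library lay below each library grown alone, in both lines. The part of partner RNA in these ratios was not tested. The exact two-sided permutation test gave p = 0.1 in each line, the smallest that 3 libraries against 3 allow.

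**Figure D4:**
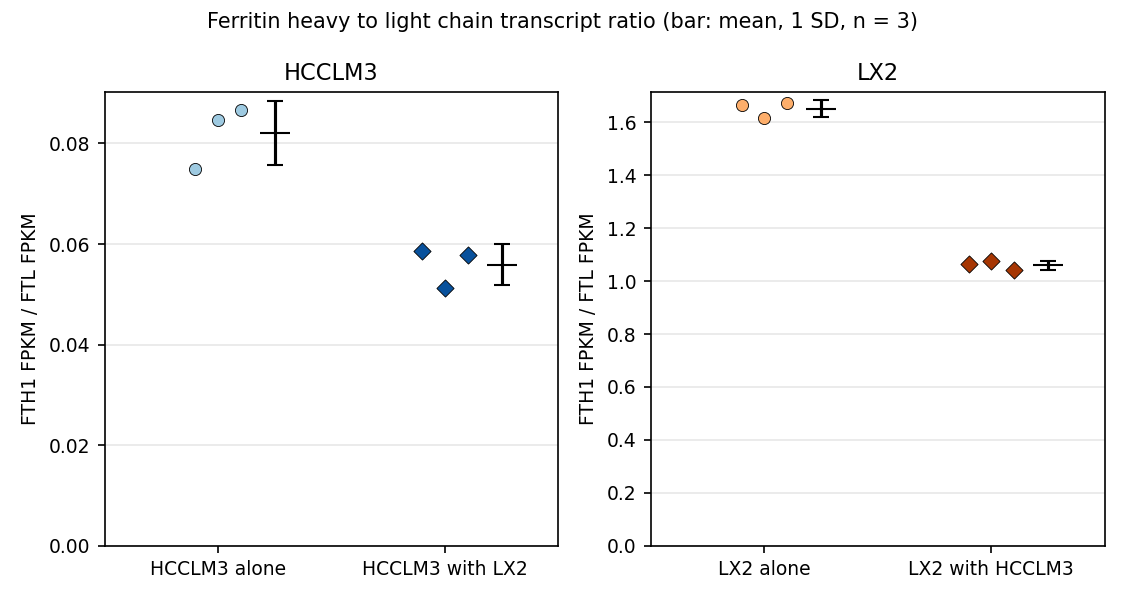
Ratio of FTH1 to FTL FPKM in each library of HCCLM3 (left) and LX2 (right), with the mean and 1 SD beside the 3 points of each group; the axes start at 0 and differ between the lines. With the partner line the mean ratio is 0.0559 against 0.0821 in HCCLM3 and 1.06 against 1.65 in LX2.

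Ferritin genes have many processed copies in the genome. Rows named as FTH1 copies held 3.2% to 4.58% of the FTH1 counts in HCCLM3 libraries (24 rows) and 2.17% to 2.39% in LX2 libraries (18 rows). Rows named as FTL copies held 0.0787% to 0.161% of the FTL counts in HCCLM3 and 0.115% to 0.151% in LX2. The sources used here do not state how reads that fit several copies were counted. These shares therefore do not bound the error of the ferritin counts. BEST1, on the other strand of the FTH1 locus, held 460 to 1157 counts in HCCLM3 and 10331 to 13565 in LX2, and whether counting used strand is not stated there either.

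Of 5 tested genes that load, chaperone or break down ferritin, 0 rose and 2 fell in HCCLM3, beside 10.1% and 11.6% over all genes. In LX2, 1 rose and 2 fell, beside 15.4% and 16.6%. NCOA4, the receptor that takes ferritin to the lysosome, fell in HCCLM3 from 28.1 ± 1.01 to 25.3 ± 1.98 FPKM (-0.32, adjusted p = 0.0346, edgeR), but its call was lost on library totals (-0.14, adjusted p = 0.239, edgeR). The iron chaperones PCBP1 and PCBP2 fell in LX2, PCBP1 from 205 ± 0.771 to 163 ± 4.18 FPKM (-0.36, adjusted p = 1.91e-04, edgeR) and PCBP2 from 46.9 ± 1.23 to 40.6 ± 0.926 FPKM (-0.24, adjusted p = 0.00164, edgeR). GLRX3, a glutaredoxin that hands on iron-sulfur clusters, fell in HCCLM3 (-0.49, adjusted p = 0.00972, edgeR) and rose in LX2 (0.21, adjusted p = 0.00801, edgeR). The difference between lines for GLRX3 was -0.74 (SE 0.0946, adjusted p = 2.99e-04, edgeR).

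SLC40A1 (ENSG00000138449, chromosome 2, 189560590 to 189583758, minus strand), ferroportin, was well expressed in HCCLM3 and near the floor in LX2. In HCCLM3 it stood at 12.8, 16.5 and 14.4 FPKM alone and at 20.1, 18.7 and 21.4 FPKM with LX2. The groups did not overlap in FPKM, but the log2 fold change of 0.3 (SE 0.107) did not pass the threshold under TMM scaling (adjusted p = 0.0956, edgeR). On library totals it was 0.47 (adjusted p = 0.0241, edgeR), and on log2(FPKM + 1) 0.44 (adjusted p = 0.0296, limma). In LX2 it held 76, 57 and 55 counts alone and 71, 48 and 45 with HCCLM3 (log2 fold change -0.29, SE 0.291, adjusted p = 0.508, edgeR). Between the lines the change of SLC40A1 differed by 0.56 (SE 0.259, adjusted p = 0.164, edgeR).

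HAMP (ENSG00000105697, chromosome 19, 35280716 to 35285143, plus strand), which encodes hepcidin, was barely detected in the hepatoma line. It held 6, 5 and 6 counts in HCCLM3 alone and 23, 23 and 8 with LX2, and did not pass the filter on low counts. The summed counts, 17 and 54, give a ratio of 3.52 per counts sequenced (exact 95% interval 2.01 to 6.47, for counting error only). With no filter, the log2 fold change was 1.6 (adjusted p = 0.267, edgeR).

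CP, which encodes the ferroxidase ceruloplasmin that works with ferroportin, rose in both lines. In HCCLM3 it went from 4.65 ± 0.874 to 29.5 ± 5.37 FPKM (log2 fold change 2.50, SE 0.173, adjusted p = 5.81e-04, edgeR). In LX2 it went from 0.39 ± 0.0936 to 1.04 ± 0.00919 FPKM (1.37, SE 0.184, adjusted p = 0.00213, edgeR). Its change was higher in HCCLM3 by 1.09 (SE 0.25, adjusted p = 0.0104, edgeR). Ceruloplasmin, like lipocalin 2, is an acute-phase protein of the liver.

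Among genes upstream of hepcidin, 14 were tested in each line. In HCCLM3, 4 rose, 0 fell and 10 did not pass the test (median log2 fold change 0.35), beside 10.1% higher and 11.6% lower over all genes. In LX2, 2 rose, 6 fell and 6 did not pass (median 0.01), beside 15.4% and 16.6%. On library totals the counts were 6 and 0 in HCCLM3 and 3 and 6 in LX2. In HCCLM3 the signal transducers SMAD4 (0.65, adjusted p = 0.0214, edgeR) and SMAD1 (0.43, adjusted p = 0.0232, edgeR) and the feedback inhibitor SMAD7 (0.47, adjusted p = 0.0424, edgeR) rose. In LX2 the bone morphogenetic protein receptor BMPR1A fell from 7.15 ± 0.128 to 4.83 ± 0.0265 FPKM (-0.60, adjusted p = 7.00e-05, edgeR). The target gene ID1 fell from 56.2 ± 1.96 to 37.1 ± 1.33 FPKM (-0.63, adjusted p = 1.68e-04, edgeR) and the inhibitor SMAD6 from 4.56 ± 0.129 to 2.79 ± 0.129 FPKM (-0.74, adjusted p = 1.88e-04, edgeR). The difference between lines was called for 7 of 14, 6 with the higher change in HCCLM3, beside 20.7% and 9.39% over all genes. On library totals 7 had the higher change in HCCLM3 and 0 the lower. Among those with the higher change were SMAD1 at 1.12 (SE 0.113, adjusted p = 5.96e-05, edgeR) and ID1 at 0.83 (SE 0.0939, adjusted p = 1.22e-04, edgeR). HAMP itself stayed near the floor in each group.

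HMOX1 (ENSG00000100292, chromosome 22, 35380361 to 35390293, plus strand), which opens the haem ring and releases its iron, rose in LX2. Its LX2 levels were 5.02, 5.26 and 4.33 FPKM alone and 12.5, 12.1 and 12.1 FPKM with HCCLM3. The co-cultured libraries were nearly equal and all well above the others, and the log2 fold change was 1.3 (SE 0.0862, a 2.46-fold rise, adjusted p = 1.10e-04, edgeR). In HCCLM3 it stood at 67.9, 55.9 and 54.2 FPKM alone and at 65.3, 67.6 and 61.7 FPKM with LX2. These groups overlapped, and the log2 fold change was -0.04 (SE 0.11, adjusted p = 0.827, edgeR) and 0.14 on library totals (adjusted p = 0.386, edgeR). The difference between lines was -1.37 (SE 0.144, adjusted p = 7.35e-05, edgeR) and was called in each of 20 alternatives, from -1.44 to -1.05.

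HMOX1 is also known as a target of NRF2, the factor of the oxidative stress response. Of 13 other NRF2 target enzymes, 0 rose and 6 fell in HCCLM3, beside 10.1% higher and 11.6% lower over all genes, and 5 rose and 4 fell in LX2, beside 15.4% and 16.6%. On library totals the HCCLM3 falls were 3. In LX2 the cystine transporter SLC7A11 rose by 0.51 (SE 0.0312, adjusted p = 8.12e-05, edgeR) and OSGIN1 by 0.74 (SE 0.099, adjusted p = 0.0021, edgeR), while NQO1 fell by 0.51 (SE 0.0329, adjusted p = 9.47e-05, edgeR). The largest LX2 changes of this list, on library totals, were AKR1B10 at 6.34 and AKR1C1 at -1.57 (adjusted p = 5.18e-04 and 2.40e-05, edgeR). The part of partner RNA in the AKR1B10 rise was not tested. All of these examples were chosen after their values were seen. The part of NRF2 in the HMOX1 rise was not tested.

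Of other genes of haem handling and breakdown, 3 of 8 tested rose and 1 fell in HCCLM3, beside 10.1% and 11.6% over all genes. In LX2, 2 of 10 rose and 3 fell, beside 15.4% and 16.6%. The haem exporter FLVCR1 rose in both lines, from 7.86 ± 0.463 to 10.8 ± 0.643 FPKM in HCCLM3 (0.29, adjusted p = 0.0366, edgeR) and from 5.25 ± 0.188 to 7.46 ± 0.228 FPKM in LX2 (0.48, adjusted p = 7.07e-04, edgeR). LRP1, a receptor that takes up haem bound to haemopexin, also rose in both, by 0.66 (adjusted p = 0.0154, edgeR) in HCCLM3 and 0.37 (adjusted p = 1.67e-04, edgeR) in LX2. The lysosomal haem transporter SLC48A1 fell by 0.80 (adjusted p = 4.62e-04, edgeR) in LX2. In HCCLM3 it fell by 0.33 (adjusted p = 0.0341, edgeR), a call lost on library totals (-0.15, adjusted p = 0.221, edgeR).

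Haem synthesis had 2 genes that rose and 2 that fell of 9 tested in HCCLM3, beside 10.1% and 11.6% over all genes. Of 8 tested in LX2, 0 rose and 2 fell, beside 15.4% and 16.6%. ALAD, the second enzyme of the pathway, rose in HCCLM3 from 3.46 ± 0.2 to 6.65 ± 0.0238 FPKM (0.77, adjusted p = 0.00206, edgeR) and fell in LX2 from 9.18 ± 0.67 to 6.15 ± 0.154 FPKM (-0.60, adjusted p = 8.02e-04, edgeR). The difference between lines for ALAD was 1.35 (SE 0.102, adjusted p = 8.31e-06, edgeR). ALAS1, the rate-limiting enzyme outside the erythroid lineage, fell in HCCLM3 from 60.5 ± 1.11 to 53.4 ± 1.85 FPKM (-0.35, adjusted p = 0.0148, edgeR), as did CPOX (-0.46, adjusted p = 0.00663, edgeR). The other call among HCCLM3 rises was ALAS2, the erythroid enzyme, at 0 counts alone and 83, 50 and 59 with LX2, in the libraries that held globin transcripts, and it passed the filter only through them. UROS fell in LX2 by 0.17 (adjusted p = 0.0369, edgeR). The calls of ALAS1 in HCCLM3 (-0.17, adjusted p = 0.0954, edgeR) and UROS in LX2 (-0.14, adjusted p = 0.0692, edgeR) were lost on library totals. With that scaling, FECH (0.45, adjusted p = 0.03, edgeR) and PPOX (0.78, adjusted p = 0.0469, edgeR) were gained in HCCLM3. UROD was gained in LX2 (0.23, adjusted p = 0.0316, edgeR). The list then had 4 rises and 1 fall in HCCLM3, and 1 of each in LX2.

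IREB2 (ENSG00000136381, chromosome 15, 78437431 to 78498209, plus strand), the iron regulatory protein that is itself degraded when iron is plentiful, did not pass the threshold in either line. It stood at 2.86, 3.90 and 3.24 FPKM in HCCLM3 alone and 3.19, 3.43 and 3.42 FPKM with LX2 (log2 fold change -0.16, SE 0.118, adjusted p = 0.389, edgeR). In LX2 it stood at 11.1, 10.7 and 10.7 FPKM alone and 10.6, 10.3 and 10.8 FPKM with HCCLM3 (-0.067, SE 0.0343, adjusted p = 0.196, edgeR). Both pairs of groups overlapped. ACO1, which encodes the other iron regulatory protein, fell in LX2 from 15.9 ± 0.298 to 13.9 ± 0.0866 FPKM (-0.22, adjusted p = 0.00243, edgeR). It was the 1 call among 3 tested sensing genes in LX2, beside 31.9% called over all genes. In HCCLM3, 0 of 3 were called, beside 21.7%.

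Of 18 tested genes of mitochondrial iron and iron-sulfur cluster assembly, 1 rose and 1 fell in HCCLM3, beside 10.1% and 11.6% over all genes. The mitochondrial iron importer SLC25A37 rose from 1.56 ± 0.239 to 2.62 ± 0.426 FPKM (0.58, adjusted p = 0.0446, edgeR) and the assembly factor IBA57 fell from 1.13 ± 0.0237 to 0.79 ± 0.0622 FPKM (-0.68, adjusted p = 0.00946, edgeR). In LX2, 3 of 18 rose and 5 fell, beside 15.4% and 16.6%. FDXR, which feeds electrons to cluster assembly, rose from 3.51 ± 0.147 to 5.07 ± 0.249 FPKM (0.50, adjusted p = 0.00265, edgeR), while the inner membrane transporter ABCB10 fell by 0.30 (adjusted p = 0.00619, edgeR) and the assembly factor LYRM4 by 0.32 (adjusted p = 0.00998, edgeR).

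**Figure D5:**
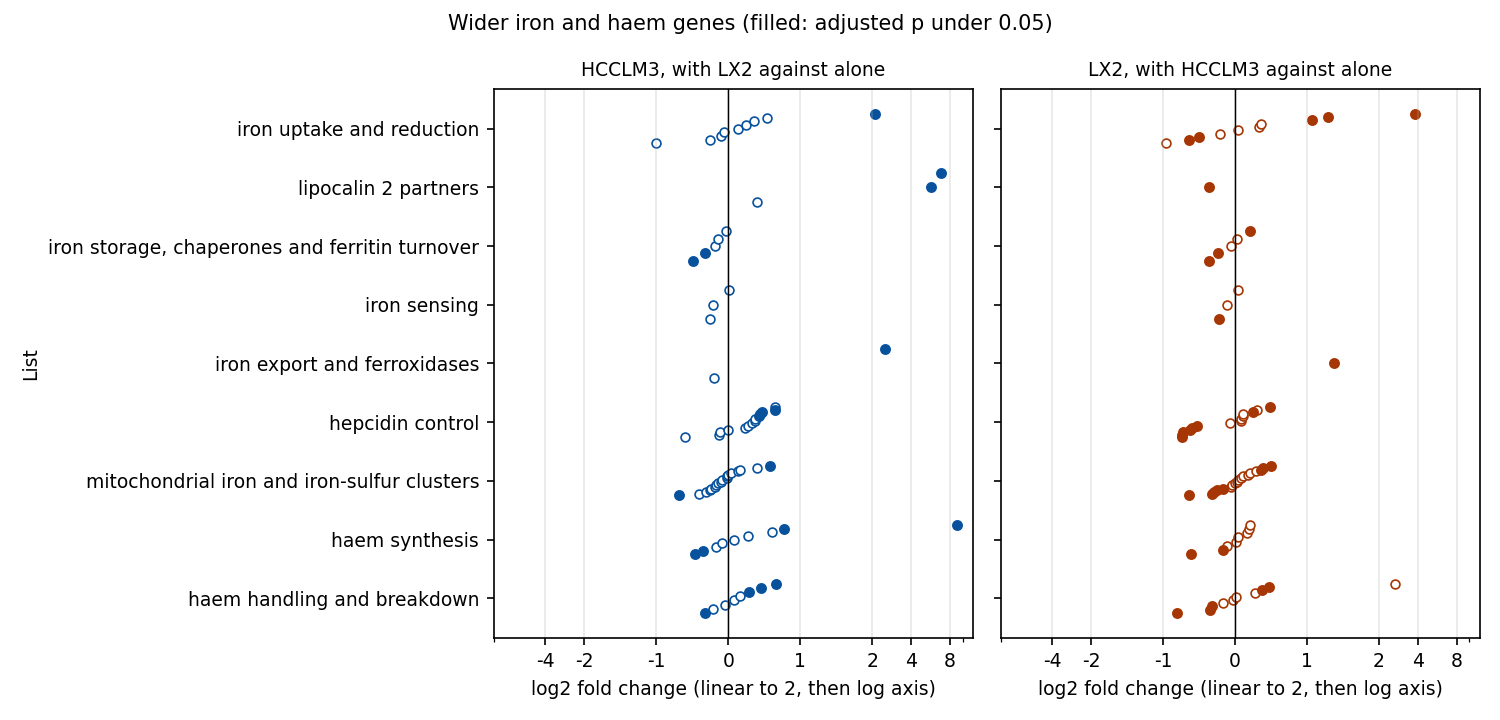
Log2 fold change with co-culture of each tested gene of 9 further iron and haem lists in HCCLM3 (left) and LX2 (right), on an axis that is linear to 2 and logarithmic beyond; filled points have an adjusted p under 0.05. Most points lie between -1 and 1, with TF, CP, LTF, MMP9 and ALAS2 standing far to the right in HCCLM3.

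Over the 83 genes of these 9 lists, 71 were tested in HCCLM3, and 14 rose and 6 fell, beside 21.7% called over all genes. Those that rose include ALAS2, MMP9 and LTF, which passed the filter on low counts only through the co-cultured group. In LX2, 70 were tested, and 12 rose and 22 fell, beside 31.9%. The median log2 fold change was -0.01 in HCCLM3 and 0.02 in LX2, close to the medians over all genes. On library totals 21 rose and 3 fell in HCCLM3, and 15 rose and 20 fell in LX2. The HCCLM3 count of 20 depended on single libraries and on the filter, as did that over all genes, which fell from 3924 to between 1918 and 2928 without any 1 library and to 3030 with no filter. For the iron lists it was 10 without HCCLM3 alone replicate 1, 9 without HCCLM3 alone replicate 3, 11 without HCCLM3 with LX2 replicate 2, 10 without HCCLM3 with LX2 replicate 3 and 12 with no filter on low counts. The LX2 count of 34 was 21 in 1 fit over all 12 libraries.

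The test of the difference between lines called 20.7% of 21959 genes, 9.39% with the higher change in HCCLM3 and 11.3% with the lower. On library totals the median over all genes moved from 0.0078 to 0.18, and the split was 2989 and 1588 genes instead of 2063 and 2483. Of the 9 iron genes tested, 3 were called: SLC11A2 with the higher change in HCCLM3, and FTL and HMOX1 with the lower. Among the wider iron genes, 15 of 75 had the higher change in HCCLM3 and 11 the lower (21 and 6 on library totals). Both comparisons within a line enter this test, so it is no independent support for either.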

How the data were processed

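RNA sequencing of 12 libraries was analysed from 2 tables, 1 per line. The deposited values are counts and FPKM side by side for each library, per the file headers; each measured column had a sample. The tools named are HISAT2 2.0, StringTie 1.3.0 and Bowtie 0.12.2 and the build mm8 (mouse), per the submitters' processing notes. Gene identifiers are human, and 9 of the 10 iron genes share a start or end with GENCODE 29, so coordinates were taken as GRCh38. Counts of 0, deposited as 0.0001 FPKM in the HCCLM3 table, were read as 0. The labels' protocol speaks of adipose RNA.

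Counts were tested with the edgeR 4.0.16 quasi-likelihood test in R 4.3.3 (filterByExpr, minimum count 10, minimum total 15, TMM), in 1 fit per line and 1 over 12 libraries for the difference between lines, two-sided, with Benjamini-Hochberg adjustment over all genes tested and calls under 0.05. limma 3.58.1, DESeq2 1.42.0, other scalings and filters, a replicate block and leaving out libraries were alternatives. SE is the fold change over the root of F. A gene with 0 counts may stand at up to 0.0386 to 0.0485 CPM (3 counts). Intervals are exact binomial, for counting error only (SciPy 1.17.1; Python 3.11.15, pandas 2.3.3, NumPy 2.4.6, matplotlib 3.10.9).

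The genes named were the 10 iron genes, up to 3 called genes per wider list and line with the smallest p and at least 1 FPKM in the higher group, the 5 most like LCN2, and up to 4 per blood marker list with the most counts in co-cultured HCCLM3; TF, MMP9, LTF and ALAS2, under 1 FPKM, and other genes were named after their values were seen. Members, lists and tests were chosen with earlier results of these data known. In counts simulated for 18045 genes in HCCLM3 and 19671 in LX2, 200 genes with a mean count of at least 50 were changed. Of 67 changed 2-fold, 52.2% were recovered in HCCLM3 and 73.1% in LX2. Of 67 changed 1.5-fold, only 10.4% and 25.4% were recovered. In the same simulation for the difference between lines, 25.4% of 2-fold and 1.49% of 1.5-fold changes were recovered. Far more genes were called in the data (3924 and 6281), so these shares need not hold there, nor for genes as low as LCN2 in LX2.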

Additional observations from a re-analysis of the deposited data

Results flagged for a closer look

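For 3 genes the change with co-culture differed between the lines by the test of the difference itself (HCCLM3 change minus LX2 change, edgeR, 12 libraries). HMOX1 differed by -1.37 on the log2 scale, with a rise in LX2 and overlapping libraries in HCCLM3. SLC11A2 differed by 0.54, with a rise in HCCLM3 and overlapping libraries in LX2. FTL differed by -0.27, and this call held in 6 of 20 alternatives.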

How the results depend on the processing

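Of values for single iron genes under the alternatives, 387 kept their direction and side of the threshold, 26 lost a call, 9 gained one and 27 changed sign. None of the sign changes was in a called value, and the cause was not tested. On library totals, limma with FPKM + 1 and limma with FPKM + 0.1, the HCCLM3 values became 0.14, 0.13 and 0.13 for FTL, 0.14, 0.13 and 0.13 for HMOX1 and 0.016, 0.011 and 0.016 for IREB2, and the difference between lines became 0.053, 0.046 and 0.054 for IREB2. SLC11A2 in LX2, with a main value of -2.75e-04, became 9.97e-04 with DESeq2 size factors, 0.029 on library totals, 0.0011 with the DESeq2 Wald test, 0.025 and 0.030 with limma, 0.012 with a mean count of at least 50, 0.0015 with the replicate block and 0.033 in 1 fit over 12 libraries. Leaving out 1 library gave -0.11 to 0.031 for FTL and -0.12 to 0.082 for HMOX1 in HCCLM3, -0.045 to 0.053 for SLC11A2 in LX2, and -0.24 to 0.98 for LCN2 and -0.21 to 2.86e-04 for IREB2 in the difference.

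Counts of called iron genes stayed within 1.5 times of the main count where 1 library was left out: 3 to 4 in HCCLM3, 4 to 6 in LX2 and 2 to 4 in the difference. Of the wider iron genes, 9 to 16 were called in HCCLM3, 25 to 32 in LX2 and 20 to 28 in the difference, with 12 in HCCLM3 without a filter and 21 in LX2 in 1 fit over 12 libraries. Over all genes the leave-one-out counts were 1918 to 2928, 4934 to 5209 and 3580 to 4438, and 3746 in LX2 in 1 fit over 12 libraries. LCN2 in LX2 and HAMP had no value with a mean count of at least 50.

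Replicate numbers showed no pairing in LX2, where same-numbered libraries correlated in their deviations at -0.039, 0.011 and -0.041. In HCCLM3 they correlated weakly but positively, at 0.017, 0.045 and 0.023, so pairing there is open. With the replicate block 3315 genes were called in HCCLM3, 4795 in LX2 and 4439 in the difference, and 3, 5 and 3 of the iron genes. In HCCLM3 every library correlated best with its own number, a hint from the data and not the design. Depth limits LCN2 in LX2, SLC40A1 in LX2 and HAMP.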
